A study of Caenorhabditis elegans with 3 samples.

Results

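The genes described here are the nuclear transfer RNA (tRNA) genes of Caenorhabditis elegans, taken as every nuclear gene of biotype tRNA in the Ensembl annotation of the WBcel235 assembly, the build that the peak files call ce11. There are 612 of them among 46890 nuclear genes, and they were examined for peaks of UNC-55, the nematode member of the COUP-TF nuclear receptors, in chromatin immunoprecipitation followed by sequencing (ChIP-seq). All chromatin came from whole L2 larvae, males and females pooled, of strain NC1639. Its integrated transgene wdIs49 on chromosome III places UNC-55a fused to GFP behind the ttr-39 promoter, in use for expressing genes in GABA motor neurons, and also carries dpy-20+. The 3 samples are biological replicates 1, 2 and 3 of 1 group, and no untagged or other reference group was analysed here. The labels state a fragment size of 150 to 350 bp for replicates 1 and 2, and microtip sonication for replicate 3. All 3 descriptions name eGFP as the tag, and a note on replicate 3 names GFP-FLAG. The peaks are those of whole animals, so the cells in which a site was bound cannot be read from them.

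tRNAs bring amino acids to the ribosome, and the isotype of a tRNA gene is the amino acid its product carries. RNA polymerase III (Pol III) transcribes these short genes from a promoter that lies inside them. Its parts are the A box and the B box, which the factor TFIIIC recognises. TFIIIC then places TFIIIB just upstream of the gene, and TFIIIB recruits the polymerase, which stops at a run of T residues after the gene. Nuclear receptors such as UNC-55 are known as regulators of genes transcribed by RNA polymerase II, and unc-55 is known for its role in the synapses of one class of GABA motor neuron in the ventral cord.

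The sequences below show what several of the genes with the strongest peaks look like, 5′ to 3′ on the gene's own strand, from the RefSeq copy of WBcel235. Capitals mark the core of the B box, written here as GTTCNANNC. C33G3.t2 (lysine, chrX:14063946-14064018, minus strand) and C06G1.t1 (histidine, chrX:16634830-16634901, minus strand) had the strongest peaks outside coding promoters among those that lie near 1 tRNA gene. F15G9.t1 (chrX:9743589-9743660) and F15G9.t2 (chrX:9743747-9743818), both for alanine and on the plus strand, share 1 summit. W09D6.t1 (proline, chrIII:11067027-11067098, plus strand) is identical to its divergent neighbour W09D6.t2. C04E7.t1 (chrX:353255-353336, minus strand) and W02H3.t1 (chrX:11095673-11095754, plus strand) are leucine genes inside and outside coding promoters. K02A4.t1 (serine, chrX:12889940-12890021, plus strand) is the only one of these whose sequence occurs once among the 612 genes. All are shown as annotated, introns included.
C33G3.t2: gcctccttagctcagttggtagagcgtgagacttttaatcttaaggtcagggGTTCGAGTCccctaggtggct
C06G1.t1: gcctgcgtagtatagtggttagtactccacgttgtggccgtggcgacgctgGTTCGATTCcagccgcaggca
F15G9.t1: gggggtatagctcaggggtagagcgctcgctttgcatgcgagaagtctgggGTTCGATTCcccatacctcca
F15G9.t2: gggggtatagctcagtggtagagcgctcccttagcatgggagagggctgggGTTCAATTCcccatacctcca
W09D6.t1: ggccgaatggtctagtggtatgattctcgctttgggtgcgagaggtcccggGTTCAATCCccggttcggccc
C04E7.t1: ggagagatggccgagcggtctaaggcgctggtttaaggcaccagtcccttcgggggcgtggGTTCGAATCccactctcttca
W02H3.t1: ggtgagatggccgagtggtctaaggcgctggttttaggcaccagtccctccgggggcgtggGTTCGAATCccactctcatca
K02A4.t1: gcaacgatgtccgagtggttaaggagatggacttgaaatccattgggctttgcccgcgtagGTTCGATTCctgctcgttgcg

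The letters of the B box core were found on either strand in 588 of the 612 genes (96.1%), in 166 of 209 annotated tRNA pseudogenes (79.4%) and in 2.44% of genome windows of 72 bp, the median tRNA gene length. An A box core, searched as the letters TGGNNNAGT, was found in 183 genes (29.9%), in 144 pseudogenes (68.9%) and in 2.79% of the windows. C33G3.t2 has tagctcagt, with A in place of the first G, and was not counted. These shares thus count the letters, and a gene without them was not shown to lack an A box. The B box core was carried by 193 of 201 genes with a peak (96.0%) and by 395 of 411 without (96.1%). The A box core was found in 34.8% of the genes with a peak and in 27.5% of those without.

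UNC-55 peaks lay at a larger share of tRNA genes than of other gene starts. A summit, the position of the highest signal in a peak, lay within 200 bp of 201 of the 612 genes in the optimal list (32.8%, exact 95% interval 29.1% to 36.7%), which holds the peaks that passed the authors' test of reproducibility between replicates. Each replicate was then read down to as many of its strongest peaks as the optimal list holds, here called its strongest peaks. The number of genes was 201 in replicate 1, 177 in replicate 2 and 190 in replicate 3, a mean of 30.9% ± 1.96 (SD, n = 3). As background, windows of the same size at the starts of the other 46278 nuclear genes held a summit in 6.35% of cases in the optimal list, and in 6.36%, 6.4% and 6.34% in the 3 replicates. The tRNA share was above that of other gene starts by 24.6 ± 1.98 percentage points (SD, n = 3), in 3 of 3 replicates. The exact two-sided sign-flip permutation test over replicates gave p = 0.25, which is the smallest value that 3 replicates allow. The same holds for all 12 such comparisons of shares, whose Benjamini-Hochberg adjusted values were 0.25 (exact permutation test), so no comparison here could pass a test at the usual threshold.

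Genome windows as wide as a tRNA gene with its flanks held an optimal summit in 2.8% of cases. The windows outside coding promoters gave 1.63% and those inside gave 4.14%. Here a coding promoter begins 2000 bp before a start site of transcription (TSS) annotated for a protein-coding gene and ends 500 bp after it. tRNA genes outside these promoters had a summit at 103 of 338 (30.5%, exact 95% interval 25.6% to 35.7%). That was 28.7% ± 2.85 in the replicates, which was 27.1 ± 2.84 points above the windows outside promoters (SD, n = 3, exact permutation p = 0.25).

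tRNA pseudogenes, copies no longer thought to give a working tRNA, rarely had a peak. A summit lay at 4 of 209 in the optimal list (1.91%), and at 5, 3 and 2 in replicates 1, 2 and 3. The tRNA share was above theirs by 29.3 ± 1.62 points, in 3 of 3 replicates (SD, n = 3, exact permutation p = 0.25). Of these 4, Y22D7AR.t1 (chrIII:1743249-1743320, minus strand, signal 62.1) and Y113G7A.t4 (chrV:20126170-20126242, minus strand, signal 77.9) lay outside coding promoters. The B box core was kept by 3 of the 4, against 79.4% of all 209 pseudogenes. With 4 pseudogenes, this count cannot show whether the core set them apart. D1046.t1, inside a coding promoter, had the highest signal of the 4 (115.9) and lacks the core. The sequences of those outside are shown with the core in capitals.
Y22D7AR.t1: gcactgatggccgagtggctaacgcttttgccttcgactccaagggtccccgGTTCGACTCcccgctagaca
Y113G7A.t4: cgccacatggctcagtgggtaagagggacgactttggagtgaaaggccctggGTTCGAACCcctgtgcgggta

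Among other short noncoding genes, small nucleolar RNA (snoRNA) genes, whose products guide the modification of other RNAs, came closest. Summits lay at 79 of 346 (22.8%), and in the replicates the tRNA share of 30.9% ± 1.96 stood above the snoRNA share of 22.6% ± 1.48 by 8.30 ± 1.51 points (SD, n = 3, exact permutation p = 0.25). Small nuclear RNA (snRNA) genes, most of which serve splicing, had a summit at 15 of 129 (11.6%). MicroRNA genes had one at 12 of 261 (4.60%), and ribosomal RNA genes at 0 of 20. Protein-coding gene starts had one within the same window at 1751 of 19973 (8.77%). That window leaves out coding summits that lie further upstream. In the much wider coding promoter defined above, 5094 of the 19973 genes (25.5%) had an optimal summit.

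**Figure D1:**
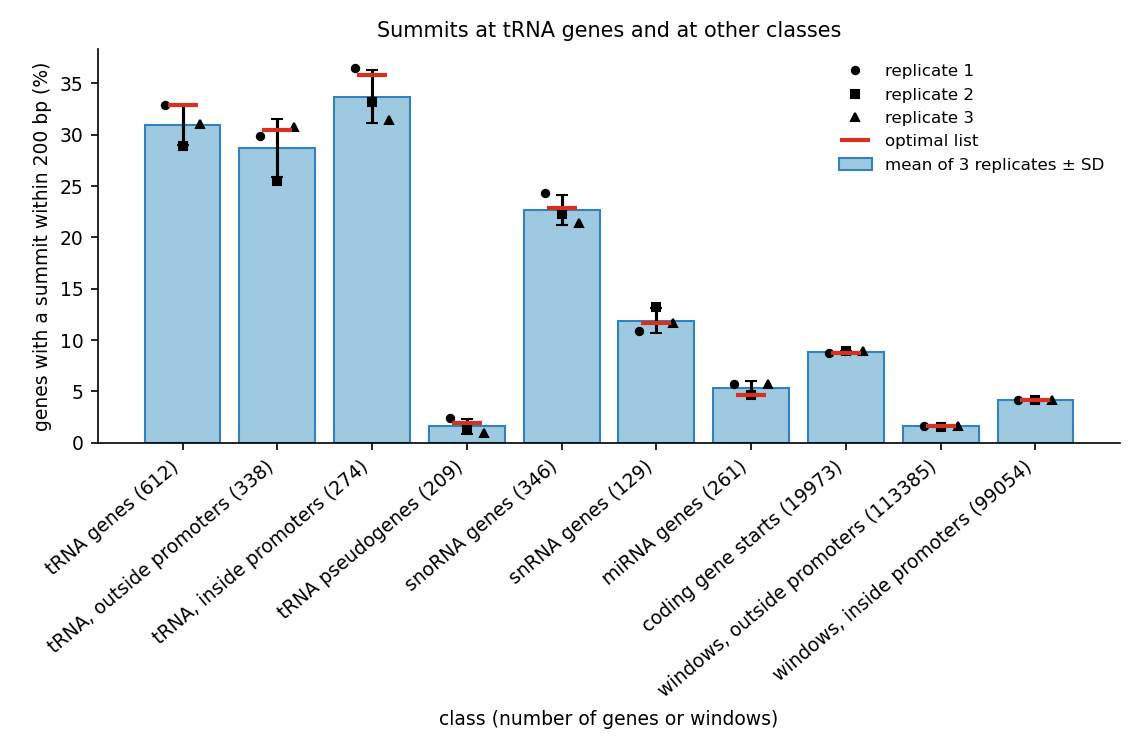
Share of genes or windows with a summit within 200 bp (y axis, percent) for tRNA genes and other classes (x axis, number of genes or windows in parentheses). Bars are means of 3 replicates with SD, points are the replicates, and red lines are the optimal list. All 3 tRNA points, from 28.9% to 32.8%, lie above all points of the other gene classes, of which snoRNA genes come closest with 21.4% to 24.3%.

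The summits sat at the start of the tRNA genes. The 201 genes were served by 185 distinct optimal summits (3.09% of the list), since 16 summits lay near a pair of genes. Of the 185, 98 were upstream of the gene, 77 inside it (41.6%, exact 95% interval 34.4% to 49.1%) and 10 downstream. The gene itself makes up 15.3% of the window. The median summit was 5 bp upstream of the gene start, with quartiles at 23 bp upstream and 20 bp downstream of the start. In replicates 1, 2 and 3 the median offset from the start was 0, -9.5 and -3 bp, negative being upstream. The peaks had a median width of 336 bp, so offsets of a few bp should not be read as exact positions. Within 50 bp of the gene start lay 154 (83.2%), and in the replicates 77.1% ± 5.30 (SD, n = 3). Relative to the box letters, the median summit was 7 bp upstream of the first base of TGGNNNAGT in the 70 genes that carry it. It was 61 bp upstream of the B box core in 193 genes. All 185 summits were counted as closer to the start of their tRNA gene than to any TSS of a protein-coding gene. They were chosen for lying near a tRNA gene, and 98 were at genes outside coding promoters, which are away from such TSSs by definition. The count was therefore largely set by these choices and is not evidence on which gene a peak belongs to. At K11H12.t1 the summit was 70 bp upstream of the start, and a coding TSS lay 118 bp from the gene. On which side that TSS lay was not looked up, so the count was not rechecked there.

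**Figure D2:**
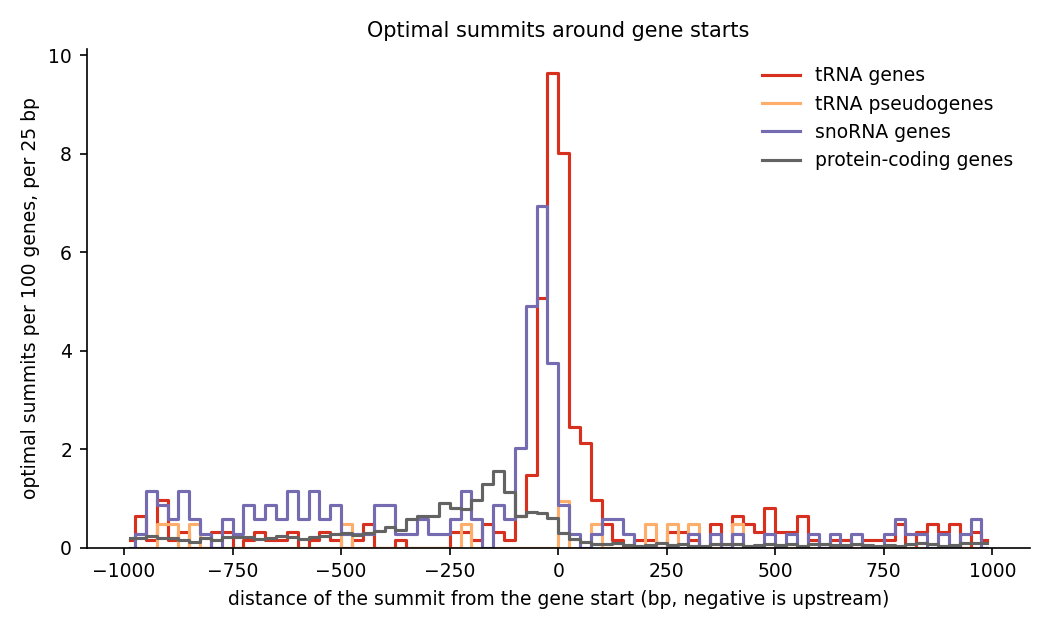
Optimal summits per 100 genes (y axis) in 25 bp bins of distance from the gene start (x axis, bp, negative upstream) for tRNA genes, tRNA pseudogenes, snoRNA genes and protein-coding genes. The tRNA curve peaks at 9.64 per 100 genes in the bin just upstream of the start, the snoRNA curve at 6.94 in the bin that starts 50 bp upstream, and the protein-coding curve at 1.56 in the bin that starts 150 bp upstream.

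The profile differed in position between classes as well as in height. Protein-coding genes had most summits in the bin that starts 150 bp upstream, with 1.56 summits per 100 genes, and snoRNA genes in the bin that starts 50 bp upstream, with 6.94. tRNA genes reached 9.64 per 100 genes in the last 25 bp before the start and 8.01 in the first 25 bp of the gene. These positions are descriptions of the optimal list and carry no test.

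Peaks at tRNA genes were of middling strength. Signal is the value the authors' caller gave each peak, and it is used here only to rank peaks within a list. The median signal of the 185 peaks was 111.5 (range 46.9 to 381.6), against 108.5 for the whole optimal list. The median tRNA peak stood at percentile 51.4 of the optimal list, and at 50.7 ± 3.09 in the replicates (SD, n = 3). The strongest 10% of the optimal list held 10 of the 185 (5.41%), and in the replicates it held 3.72%, 3.53% and 5.65% of the peaks at tRNA genes. The median signal was 98.7 for the 98 peaks at genes outside coding promoters and 116.1 for the 87 inside.

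The replicates shared most of the genes. Of the 612, 134 had a summit among the strongest peaks of all 3 replicates, 56 in a pair of them, 54 in 1 and 368 in none. All 134 also had an optimal summit. When the optimal peak of a gene had to be overlapped by the strongest peaks of both remaining replicates, 128 genes were left without replicate 1 (20.9% of the 612). The optimal list was made from these replicates, so this overlap is not independent evidence. Replicates 1 and 2 shared 158 genes, 78.6% of those in replicate 1 and 89.3% of those in replicate 2. Replicates 1 and 3 shared 157 (78.1% and 82.6%), and replicates 2 and 3 shared 143 (80.8% and 75.3%). Across the 190 genes with an optimal summit and a summit in every whole replicate list, Spearman's rho of the peak ranks between replicates 1 and 2 was 0.760. It was 0.749 between replicates 1 and 3 and 0.717 between replicates 2 and 3. The genes were chosen by an optimal summit, which rests on reproducibility between these same replicates, so the filter favours high rho values. These values describe genes within libraries that were called against 1 shared control, and some genes share a peak.

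The 411 genes without an optimal summit were not uniformly empty. In the whole relaxed lists, which reach to weak calls by design, 318, 307 and 310 of the 612 genes had a summit in replicates 1, 2 and 3. Of the 411, 38 had a summit in all 3 whole lists, which for 14 of them was among the strongest peaks of at least 1 replicate. Another 203 had none in any whole list. The signal of the last peak counted among the strongest was 27.3, 17.6 and 9.31 in replicates 1, 2 and 3, so signal values are not on 1 scale across replicates.

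**Figure D3:**
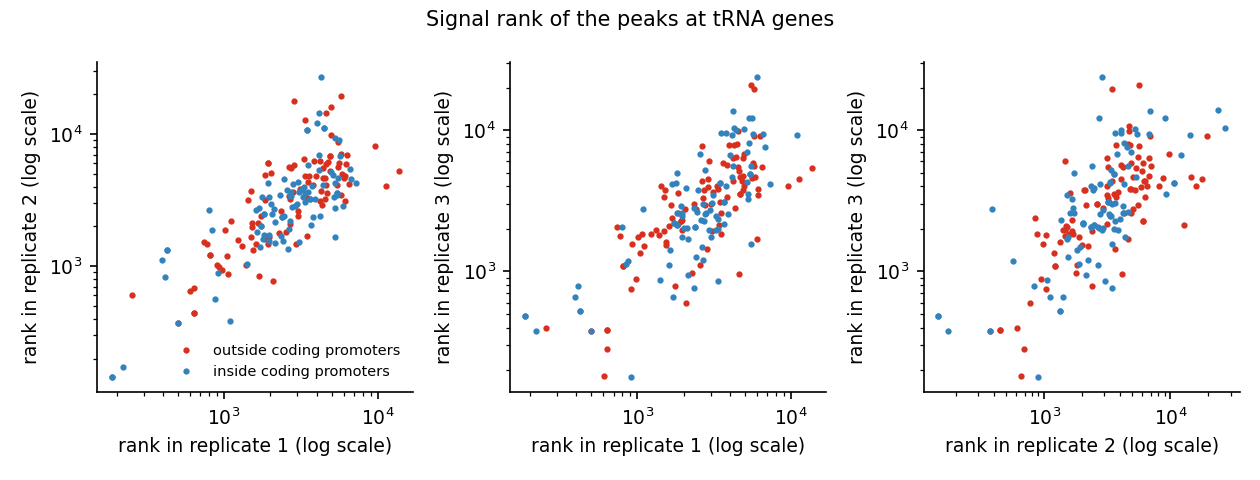
Rank by signal of the peak at each tRNA gene in 1 replicate (x axis, log scale) against another (y axis, log scale), for the 190 genes with an optimal summit and a summit in every whole list. Points are genes, red outside and blue inside coding promoters, and rank 1 is the strongest peak. The points run along the diagonal with a Spearman's rho of 0.760, 0.749 and 0.717 from left to right. The choice of genes by the optimal list, made from these replicates, favours such agreement.

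Outside coding promoters, the strongest peak at a tRNA gene was that of the lysine gene C33G3.t2. It lies between coding genes, 4002 bp from the nearest coding TSS, and its summit was 37 bp upstream of the gene start. The peak (chrX:14063880-14064166) had a signal of 324 in the optimal list, and its rank was 253 in replicate 1, 606 in replicate 2 and 399 in replicate 3. It was thus among the strongest 10% of the 30000 or 25262 peaks in each whole list. The histidine gene C06G1.t1, in a coding gene on the other strand, had a signal of 291 with ranks of 604, 649 and 182 in replicates 1, 2 and 3.

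The alanine genes F15G9.t1 and F15G9.t2 lie in tandem in a coding gene on the same strand. Their shared peak (chrX:9743517-9743856) had signal 288 and ranked 636, 446 and 385 in replicates 1, 2 and 3. The summit was 104 bp past the start of the first gene, beyond its end, and 54 bp upstream of the second. A peak between genes like this one cannot be given to either gene.

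Next in signal outside coding promoters came R11.t1, a tyrosine gene in a group of 4 tRNA genes, which had signal 272 and ranked 637, 688 and 283 in replicates 1, 2 and 3. The leucine gene W02H3.t1 had signal 233 and ranked 902, 1028 and 750. F47G6.t1, for arginine, had signal 223 and ranked 973, 936 and 878. W02H3.t1 and F47G6.t1 differed little in rank between replicates. C14B9.t1 (methionine, signal 221) ranked 770, 1471 and 1796 in replicates 1, 2 and 3. K02A4.t1 (serine, signal 220) ranked 740, 1516 and 2053. For both, the rank was highest in replicate 1.

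Inside coding promoters, the strongest peak served the divergent pair M02F4.t1 (glycine) and M02F4.t2 (glutamate). It had signal 382 and ranked 185, 144 and 481 in replicates 1, 2 and 3, and its summit was 60 bp upstream of the glycine gene and 57 bp upstream of the glutamate gene. The leucine gene C04E7.t1, 324 bp from a coding TSS, had a signal of 359 with ranks of 220, 172 and 380. The divergent serine genes C53C7.t1 and C53C7.t2 shared a summit of signal 296 with ranks of 498, 369 and 382. The promoter boundary falls between this pair, so that C53C7.t1 counts as inside and C53C7.t2 as outside. The divergent proline pair W09D6.t1 and W09D6.t2 shared a summit of signal 281, which ranked 424 in replicate 1, 1324 in replicate 2 and 524 in replicate 3. Divergent pairs thus held 3 of the 4 summits named here, with the C53C7 pair lying across the boundary. Of all 185 optimal summits at tRNA genes, 16 lay near a pair of genes of any orientation. Genes with another tRNA gene under 500 bp away had a summit less often than genes alone (27.1% against 35.1%).

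Each of the 21 isotypes had at least 1 gene with an optimal summit, and the 5 genes with no isotype given had none. Among the strongest genes of isotypes not yet named, signal ran from 264 at R04D3.t2 (valine) to 47.3 at K11H12.t1, the gene for the selenocysteine tRNA. K11H12.t1 ranked 5612, 9045 and 12142 in replicates 1, 2 and 3, so its peak was among the strongest peaks, as defined above, in replicate 1 alone. The strongest tryptophan gene was sup-5, a locus known for mutations that let its tRNA read through amber stop codons. Its peak had a signal of 213, with ranks of 1064, 877 and 1829, and a summit 27 bp upstream of the gene. The strongest genes for glutamine (R04A9.t1, 230), asparagine (F41D9.t3, 217), cysteine (C37A2.t1, 211) and phenylalanine (T28B4.t1, 206) had signals close to that of sup-5. Those for aspartate (F52H2.t1, 199.9), threonine (R01H5.t1, 179) and isoleucine (T21B4.t1, 161) were weaker. R04A9.t1 varied most in rank among these, with 1084, 385 and 2764 in replicates 1, 2 and 3.

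The share of genes with a peak varied between isotypes. Of the isotypes with at least 10 genes, aspartate had the highest share, 16 of 27 genes (59.3%; 46.9% ± 2.14 in the replicates, SD, n = 3). Tryptophan had the lowest in the optimal list, 2 of 12 (16.7%; 19.4% ± 9.62), and its replicates ranged from 8.33% to 25%. Next to the highest came glutamate with 19 of 41 (46.3%; 41.5% ± 6.45) and cysteine with 6 of 13 (46.2%; 38.5% ± 7.69). Next to the lowest came isoleucine with 5 of 29 (17.2%; 23.0% ± 1.99) and glutamine with 5 of 27 (18.5%; 13.6% ± 2.14). Across replicates, aspartate, glutamate and cysteine overlapped each other, and tryptophan overlapped isoleucine and glutamine. By the replicate means, glutamine was below tryptophan, and tyrosine (4 of 19; 19.3% ± 3.04) was next to it. All 3 aspartate values, 44.4% to 48.1%, were above all 3 isoleucine values, 20.7% to 24.1%. Differences between isotypes were not tested. With as few as 12 to 14 genes, 1 gene moves a share by several points.

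**Figure D4:**
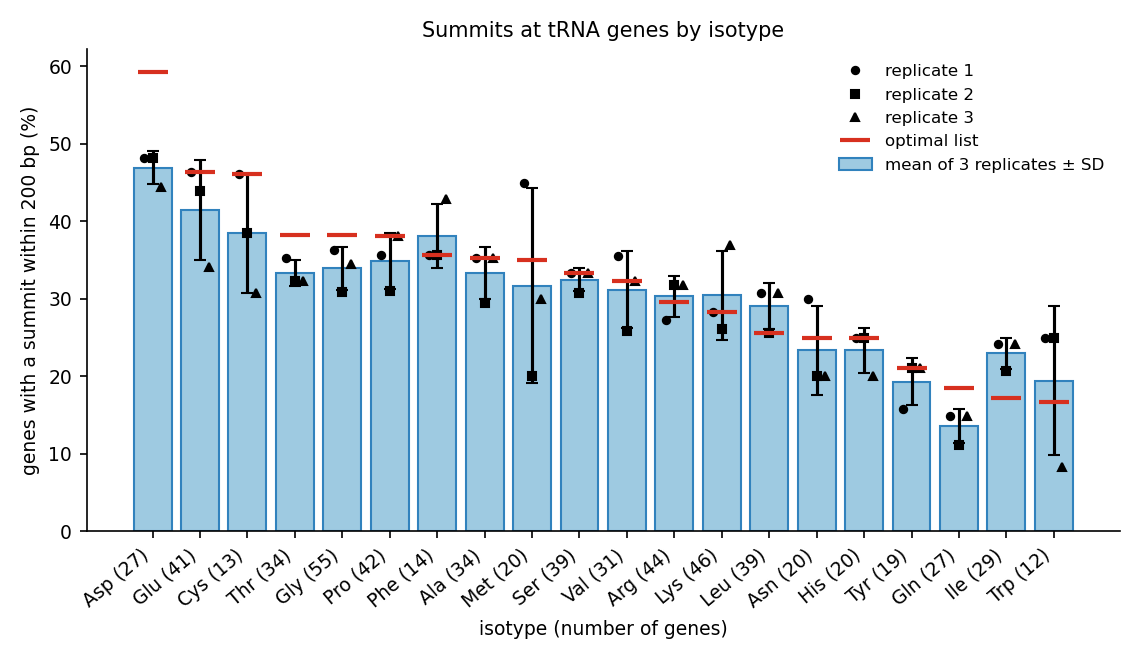
Share of genes with a summit within 200 bp (y axis, percent) for the isotypes with at least 10 genes (x axis, number of genes in parentheses). Bars are means of 3 replicates with SD, points are the replicates and red lines the optimal list, by which the isotypes are ordered. Aspartate stands at the left with 59.3% and tryptophan at the right with 16.7% in the optimal list.

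Isotypes went both ways by place. Of the 19 isotypes with genes outside and inside coding promoters, 11 had a higher share with an optimal summit outside and 8 a lower one. The isotypes named next were picked after their values were seen and are given without a test. No isoleucine gene outside coding promoters had an optimal summit (0 of 19; 2, 1 and 2 genes in replicates 1, 2 and 3), and 5 of 10 inside did, the same number in each replicate. Glycine genes had a summit at 6 of 30 outside and 15 of 25 inside, with 6 outside and 14, 11 and 13 inside in the replicates. Glutamate genes had one at 5 of 20 outside and 14 of 21 inside. Among those with a higher share outside were threonine, with 9 of 18 outside and 4 of 16 inside, lysine, with 10 of 26 outside and 3 of 20 inside, and methionine, with 4 of 8 outside and 3 of 12 inside.

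Over all isotypes, genes outside coding promoters had a summit in 28.7% ± 2.85 of cases and those inside in 33.7% ± 2.59, a difference of -5.0 ± 3.84 points (SD, n = 3, exact permutation p = 0.25). The sign was the same in 3 of 3 replicates, with -6.61, -7.77 and -0.618 points. At a distance of 100 bp, with the whole lists (-1.85 points) and with a narrower promoter window, the replicates did not all share that sign (exact permutation p = 0.5 in each).

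The X chromosome, which carries 276 of the 612 tRNA genes, was set against the autosomes. A summit lay at 94 of 276 genes on X (34.1%) and at 107 of 336 on autosomes (31.8%). In the replicates the share was 32.2% ± 1.31 on X and 29.9% ± 2.57 on autosomes, a difference of 2.39 ± 1.46 points (SD, n = 3, exact permutation p = 0.25). With the whole relaxed lists the difference turned to -1.47 points (exact permutation p = 1). It was 6.51 points at a distance of 500 bp, 6.09 with the upper 50% of the strongest peaks and 5.22 among genes outside coding promoters. Single autosomes spread more widely. Chromosomes III and IV had summits at 29 of 64 (45.3%; 39.6% ± 4.51 in the replicates) and 30 of 71 genes (42.3%; 35.2% ± 5.63). Chromosome V had them at 15 of 78 (19.2%; 19.2% ± 2.56), chromosome I at 17 of 66 (25.8%) and chromosome II at 16 of 57 (28.1%). The values of chromosome V, from 16.7% to 21.8%, lay below all values of III and IV. Shares of other gene starts or genome windows were not computed by chromosome. Whether these differences, or that between X and autosomes, are particular to tRNA genes was therefore not tested. The transgene is integrated on chromosome III, and its relation to these shares was not tested.

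Many tRNA genes are identical copies. The 612 genes held 200 distinct sequences, of which 57 occurred at least 2 times and covered 469 genes. In 42 of these 57 sets some copies had an optimal summit and others did not, in 4 every copy had one and in 11 none did. All 20 sets of 10 or more copies were mixed. The largest, 29 glycine genes that include M02F4.t1, had a summit at 14 copies (13, 10 and 12 in replicates 1, 2 and 3), with signals from 50.3 to 382. The 21 aspartate copies had one at 12 (10 in each replicate), the 24 proline copies that include W09D6.t1 at 11 (10, 8 and 11), and the 19 isoleucine copies at 2 (4, 3 and 4). Copies of 1 sequence thus ranged from no peak to some of the strongest peaks at any tRNA gene.

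**Figure D5:**
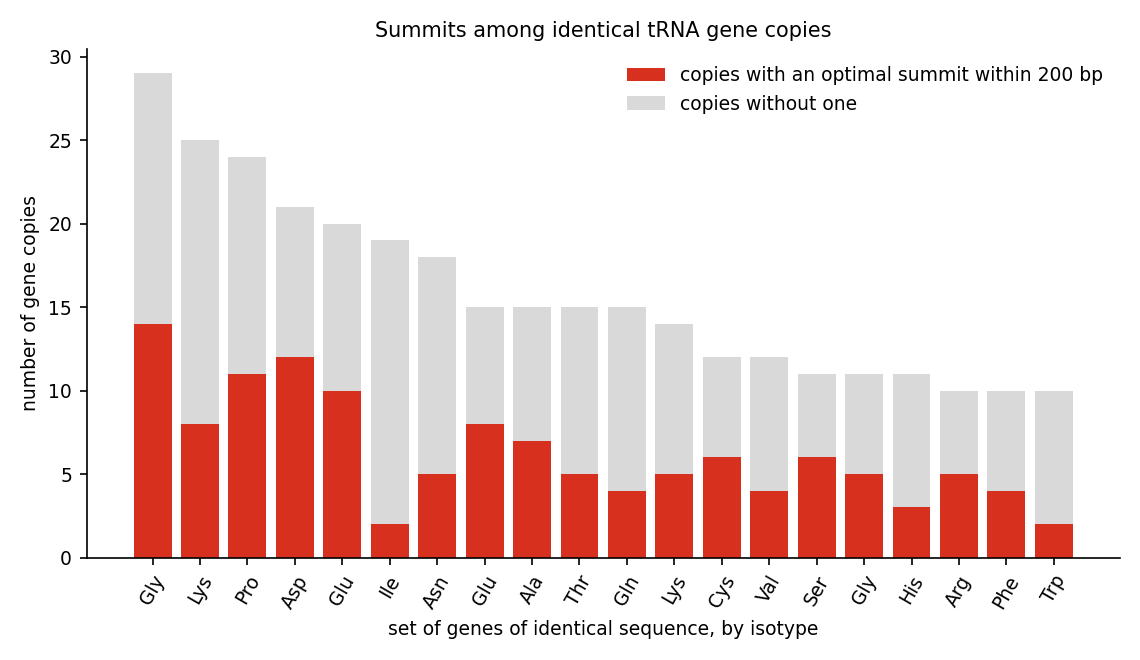
Number of gene copies (y axis) in each of the 20 sets of 10 or more tRNA genes of identical sequence (x axis, by isotype), with red for copies with an optimal summit within 200 bp and grey for those without. Every set has both, from 2 of 19 for isoleucine to 12 of 21 for aspartate.

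Genes whose sequence occurs once had a summit least often. The count was 25 of 143 (17.5%; 17.5% ± 0.699 in the replicates, SD, n = 3). Genes with 2 to 5 copies had a summit in 35.4% of cases, those with 6 to 10 in 32.0%, those with 11 to 20 in 37.2% and those with more than 20 in 45.5%. All 3 replicate values of the unique genes, 16.8% to 18.2%, were below all values of the other classes, the lowest of which was 29.0%. Outside coding promoters the unique genes had a summit at 12 of 76 (15.8%). How reads that match several copies were placed before peak calling is not stated, and its part in this difference was not tested.

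The sequence just upstream also differed between genes with and without a peak. In the 50 bp before the gene start, A and T made up a median of 54% of bases in the 201 genes with an optimal summit and 60% in the 411 without. The median was 62% at tRNA pseudogenes and 64% in genome windows. Over the replicates the mean was 53.6% ± 0.109 with a summit and 59.1% ± 0.110 without, a difference of -5.56 ± 0.0223 points (SD, n = 3, exact permutation p = 0.25). The replicates call largely the same genes, so the small SD describes that overlap and not a precision over genes. The difference was -6.14 ± 0.269 points among genes outside coding promoters and -5.60 ± 0.130 among genes with identical copies elsewhere (both with exact permutation p = 0.25). Base composition can affect sequencing coverage, and its part in the peaks was not tested. The terminator did not set the genes apart: TTTT was found within 20 bp after the gene at 99.0% of genes with a summit, 98.1% of those without, 91.9% of pseudogenes and 25.8% of genome windows.

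AGGTCA, the core element that many nuclear receptors recognise, was searched on both strands in the 101 bp around each summit. It was found at 5 of the 185 summits at tRNA genes (2.70%), at 77 of the 5808 other optimal summits (1.33%) and in 2.42% of genome windows of 101 bp. AGGTCA was also found in 47 of the 612 tRNA genes themselves (7.68%), so a match near a summit can be part of the gene. The B box core was found in the same windows at 64 of the 185 (34.6%), at 2.53% of the other summits and in 3.53% of genome windows. The 185 were chosen for lying at tRNA genes, of which 96.1% carry this core, so its higher share there was set by that choice. A match is a description of the letters and not evidence of a site.

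Protein-coding genes of the Pol III machinery and of tRNA maturation were counted next. The list of 31 symbols, of which 29 matched the annotation, also held genes of the snRNA activating complex and rnp-8. An optimal summit lay in the promoter window of 15 of the 29, against 25.5% of all coding genes (5094 of 19973). The strongest was popl-1, which encodes a protein of the RNase P family of complexes that trim tRNA precursors, of signal 382, which ranked 302, 74 and 812 in replicates 1, 2 and 3. It was followed by rpac-19, a subunit shared by RNA polymerases I and III (signal 323), and snpc-3.4, a subunit of the snRNA activating complex (296). The subunits shared by all 3 nuclear polymerases rpb-8, rpb-12 and rpb-10 had signals of 264, 227 and 221, and 2 more of these, rpb-5 and rpb-6, had 169.7 and 119.8. Among genes dedicated to Pol III, its largest subunit rpc-1 had a signal of 117 and the TFIIIC gene tftc-1 one of 132. The listed genes hoe-1, trm-1, rtcb-1 and xpo-3 also had a peak, with signals of 210, 209, 146 and 139. The Pol III subunit genes rpc-2 and rpc-11, the gene rpac-40 for a subunit shared with RNA polymerase I, the TFIIIB gene brf-1, the TFIIIC genes tftc-3 and tftc-5, the Pol III repressor mafr-1 and the TATA-binding protein gene tbp-1 had none. Of the snRNA activating complex, snpc-4 also had a peak (signal 130), but snpc-1.1, snpc-1.2, snpc-1.3, snpc-3.1 and snpc-3.2 had none. The gene rnp-8 had none either.

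Of other RNA genes transcribed by Pol III, the gene for the RNase P RNA, rpr-1, had a peak of signal 205 and the RNase MRP RNA gene mrpr-1 one of signal 133. None of the 16 matched genes for 5S ribosomal RNA had an optimal summit. Most of these lie in a tandem repeat on chromosome V, where placement of reads is again not stated.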

How the data were processed

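The deposited files are ChIP-seq peak lists in ce11 coordinates from 3 biological replicates of 1 group. According to the notes deposited beside the lists, the authors called a relaxed list per replicate, all against the same control alignment, and a pooled list on all 3 together. The optimal list holds peaks past the authors' threshold of irreproducible discovery rate. The lists held 30000, 30000 and 25262 peaks in replicates 1, 2 and 3, 30000 pooled and 5993 optimal. Each peak carries a signal value from the authors' caller, with no stated relation to depth. The authors also deposited a −log10 q-value, which was not used here. The aligner and the peak caller were not given in the sources used here. Read depth is unknown, the control was not analysed here, and the lists in ce10 coordinates were not used.

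Summits were compared with Ensembl release 115 genes. Isotypes, gene names and the 209 pseudogenes came from RefSeq, matched for all 612 genes, and sequence from RefSeq WBcel235. A gene was inside a coding promoter when its midpoint was. Replicates were compared by their 5993 strongest peaks, and other gene starts by windows of 472 bp. Shares have exact Clopper-Pearson 95% intervals, which describe numbers of genes only. Differences over replicates were tested with the exact two-sided sign-flip permutation test. Named genes are the 10 strongest outside and 5 strongest inside coding promoters, the strongest of each isotype, the isotypes with the highest and lowest share, and up to 6 factor genes by signal. Other genes and isotypes are named after their values were seen. The members and lists were chosen with earlier results of these data known. Added after the files were seen were the comparisons with pseudogenes, genome windows and single RNA classes, the identical copies, the flanking sequence and the motifs. The box letters were loosened after their shares were seen. TGGCNNAGT had matched 9.97% and GTTCGANNC 72.2% of tRNA genes. Overlap functions were tested on simulated data. Python 3.11.15, numpy 2.4.6, pandas 2.3.3 and scipy 1.17.1 were used. Alternatives were distances of 100 and 500 bp, the 2996 strongest peaks, the pooled or whole lists, peak overlap, joined loci, a narrower promoter window, other comparison genes and leaving out each replicate.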

Additional observations from a re-analysis of the deposited data

How the results depend on the processing

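The share of tRNA genes with an optimal summit, 32.8%, was 37.7% at a distance of 500 bp, 17.3% with the upper 50% of optimal peaks by signal and 51.3% with the pooled list. Outside coding promoters, 30.5% became 14.5% with that upper 50% and 50% with the pooled list. Shorter or longer lists hold fewer or more peaks by construction. When an optimal peak had to be covered at 50% of its length by the strongest peaks of both remaining replicates, the share without each replicate was 20.9% to 23.0%, with 128 genes without replicate 1, 141 without replicate 2 and 139 without replicate 3, and this rule is stricter than the optimal list. The median percentile of peaks at tRNA genes, 50.7, was 82.1 in the whole lists and 40.7 among the upper 50% of the strongest peaks. The difference between X and autosomes, 2.39 points, reversed to -1.47 in the whole lists (exact permutation p = 1), and the cause was not tested. It was 6.51 points at 500 bp, 6.09 with the upper 50% of the strongest peaks, 5.22 among genes outside coding promoters and 1.54 to 2.81 with a replicate left out. The difference from other gene starts kept its sign in every alternative run, from 12.5 points with the upper 50% of the strongest peaks to 34.5 with the whole lists, and was 23.6 to 25.6 points with a replicate left out. The difference between genes outside and inside coding promoters was -7.19 to -3.62 points with a replicate left out. Its mean stayed negative in every alternative run, but was -1.85 with the whole lists, and there, at 100 bp and with the narrower promoter window the replicates did not all share the sign (exact permutation p = 0.5). In all, 37 values of these comparisons, those given above that kept their sign among them, kept their side or moved by less than their spread. So did 89 values of single isotypes and genes, but these say little about robustness. For genes, the signal was looked up again at 100 and 500 bp, and every counted value was unchanged. R04A9.t1, whose summit lies more than 100 bp upstream, had no value at 100 bp and was not counted there. Isotype shares rest on as few as 12 genes, and cysteine was counted although it moved from 46.2% to 61.5% at 500 bp. No paired analysis was possible because the series has 1 group. Depth is unknown, so a gene without a summit cannot be called unbound.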

Other observations

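By the place of the tRNA gene relative to coding genes, the share with a summit was 33.0% (106 of 321) between coding genes, 33.3% (56 of 168) in a coding gene on the same strand and 31.7% (39 of 123) in a coding gene on the other strand. Over the replicates these were 30.4% ± 1.09, 30.8% ± 3.87 and 32.5% ± 1.63 (SD, n = 3). The ranges of the 3 places overlapped.

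Genes with another tRNA gene under 500 bp away had a summit at 46 of 170 (27.1%), and genes that stood alone at 155 of 442 (35.1%). Over the replicates the shares were 24.3% ± 3.24 for genes with a near neighbour and 33.5% ± 1.63 for those alone (SD, n = 3). All 3 values of genes with a neighbour, 20.6% to 26.5%, were below all 3 of genes alone, 32.1% to 35.3%. Neighbouring genes can share a peak, and the difference was not tested.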
